A study of Mus musculus with 2 samples.

Results

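Broad domains of H3K36me2, the dimethylated form of lysine 36 on histone H3, were examined in splenic regulatory T (Treg) cells of C57BL/6 mice. A broad region was a called region on chromosomes 1 to 19 or X with a length of at least 4 kb, the length being its end minus its start. In the wild-type (WT) library 407 of 54527 called regions met this rule, and in the library from mice with a conditional Nsd2 knockout in their Treg cells (KO) 382 of 39745 did. Broad regions of the 2 libraries that shared at least 1 bp were joined, together with any broad region linking them, which gave 572 domains. The domains were thus selected on the called length and position of regions, so that lengths, tag densities and edges are given below as descriptions, with no test. Each genotype had 1 library, and no difference between the genotypes has a replicate check. Both groups share strain, organ and cell type in the labels. What drives the conditional deletion, how many mice were used and how cells were sorted is not given in the sources used here. KO therefore stands for cells in which the deletion may or may not have reached every cell, and the lists do not measure NSD2.

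H3K36me2 is placed by the NSD family of methyltransferases, of which NSD2 is a member, and by ASH1L, while SETD2 converts H3K36 to the trimethylated form over transcribed gene bodies. The mark spreads over wide stretches within and between genes, recruits readers such as the DNA methyltransferase DNMT3A, and opposes methylation of H3K27 by Polycomb. Treg cells are CD4+ T cells under the transcription factor Foxp3 that restrain immune responses. The 2 libraries allow the widest stretches of the mark to be compared between Treg cells of the 2 genotypes.

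Sequences upstream of genes whose starts lie in domains are shown because these starts lie within domains, in most of them with marked sequence on both sides and in Tcf7 close to the domain's end. The 250 bases before the annotated start are given 5′ to 3′ on the gene's strand, from RefSeq GRCm38.p6, the assembly that mm10 names. Capitals mark matches, on either strand, to the RUNX motif TGTGGT, the ETS motif CCGGAAGT, the TCF motif CTTTGA or the GATA motif AGATAA, and no pair of matches overlapped in the sequences shown. The first 4 sequences belong to the longest domains with an annotated start, and the other 3, of T cell and Treg genes, were chosen after their values were seen.

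Ugt1a1, chr1:88211709-88211958, plus strand: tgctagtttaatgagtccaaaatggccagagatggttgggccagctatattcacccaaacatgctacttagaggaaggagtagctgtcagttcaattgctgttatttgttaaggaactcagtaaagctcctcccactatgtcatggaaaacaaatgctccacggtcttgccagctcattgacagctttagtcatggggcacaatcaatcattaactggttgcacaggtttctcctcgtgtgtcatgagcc

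Mroh2a, chr1:88226770-88227019, plus strand: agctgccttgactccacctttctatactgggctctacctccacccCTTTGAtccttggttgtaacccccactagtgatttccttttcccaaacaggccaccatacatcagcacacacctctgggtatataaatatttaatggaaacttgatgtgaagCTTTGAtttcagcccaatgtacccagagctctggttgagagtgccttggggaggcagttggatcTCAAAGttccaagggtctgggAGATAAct

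Hjurp, chr1:88277580-88277829, minus strand: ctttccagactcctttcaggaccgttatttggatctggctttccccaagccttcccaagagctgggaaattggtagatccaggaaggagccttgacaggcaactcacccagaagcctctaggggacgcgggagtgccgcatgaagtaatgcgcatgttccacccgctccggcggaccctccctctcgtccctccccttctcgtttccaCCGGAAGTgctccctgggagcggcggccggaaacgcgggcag

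Nr4a1, chr15:101266596-101266845, plus strand: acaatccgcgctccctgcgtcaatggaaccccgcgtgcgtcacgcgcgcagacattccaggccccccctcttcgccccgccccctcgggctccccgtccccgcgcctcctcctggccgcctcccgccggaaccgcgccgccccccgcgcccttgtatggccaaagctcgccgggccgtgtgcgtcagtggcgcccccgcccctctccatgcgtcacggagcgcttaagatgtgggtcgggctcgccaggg

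Lck, chr4:129573642-129573891, minus strand: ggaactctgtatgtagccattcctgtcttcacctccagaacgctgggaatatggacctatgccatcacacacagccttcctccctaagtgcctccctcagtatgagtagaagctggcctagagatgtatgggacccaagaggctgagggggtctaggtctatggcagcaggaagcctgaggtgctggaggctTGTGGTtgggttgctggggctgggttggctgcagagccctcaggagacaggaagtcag

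Izumo1r, chr9:14903768-14904017, minus strand: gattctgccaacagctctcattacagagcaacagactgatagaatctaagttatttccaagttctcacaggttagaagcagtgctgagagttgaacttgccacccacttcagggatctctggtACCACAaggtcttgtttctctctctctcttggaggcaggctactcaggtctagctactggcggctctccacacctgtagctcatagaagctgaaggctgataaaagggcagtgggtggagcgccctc

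Tcf7, chr11:52282596-52282845, minus strand: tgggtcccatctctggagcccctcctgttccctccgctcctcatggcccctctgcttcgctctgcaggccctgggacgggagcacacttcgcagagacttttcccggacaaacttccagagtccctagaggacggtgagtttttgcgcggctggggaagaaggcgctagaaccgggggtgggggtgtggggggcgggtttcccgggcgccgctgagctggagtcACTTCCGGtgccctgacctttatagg

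Among the first 4 windows, GC content was 74.4% before Nr4a1, with 34 CpG pairs, and 44.8% before Ugt1a1, with 2 CpG pairs, while the window before Mroh2a held 0 CpG pairs at 47.2% GC. Of 21044 RefSeq promoter windows on the same chromosomes, 112 windows of 92 genes had their start in a domain. Those 112 windows had a median of 5 CpG pairs against 10 over all windows, and a median GC content of 57.6% against 55.6%. The RUNX motif was in 25% of domain windows and in 12.2% of all windows. The ETS motif was in 1.79% and 3.83%, the TCF motif in 10.7% and 12.8%, and the GATA motif in 8.04% and 8.84%. Several windows belong to the same gene and the windows differ in base composition, and a match is a string of letters, not a bound site. Matches stood before Lck and Izumo1r (RUNX) and before Mroh2a (TCF and GATA), and the ETS motif before Hjurp and Tcf7.

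Domains also held 6 annotated microRNA genes with 9 mature forms, and the mature sequences are printed for the 2 genes in domains that were broad in both libraries. Capitals mark the seed, bases 2 to 8.

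mmu-miR-7001-5p, chr2:93421980-93422002, minus strand: aGGCAGGGugugagcgugagcau

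mmu-miR-7001-3p, chr2:93421929-93421948, minus strand: cGCUCACAcucccucugcag

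mmu-miR-5104, chr10:7836441-7836464, plus strand: cUGUGCUAgugagguggcucagca

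Mir7001 lies in Cd82, a tetraspanin gene, in a domain with 20.4 normalised tags per covered kb in WT and 20.5 in KO. Mir5104 lies in Zc3h12d, an RNA-binding protein gene, in a domain with 16.9 and 17.8. The others were Mir8096, Mir7045 in Chd4, Mir8113 in Cd27 and Mir6912 in Adat3, each in a domain that was broad in KO only.

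At the 4 kb limit the number of broad regions differed little between genotypes, whereas shorter regions were fewer in KO. Broad regions made up 0.748% of WT regions on these chromosomes and 0.964% of KO regions. They held 5.86% of covered base pairs and 7.29% of normalised tags in WT, and 7.59% and 9.61% in KO. Normalised tags are reads scaled to 10000000 per library. KO had 93.9% as many broad regions as WT, with an exact conditional binomial 95% interval of 81.4 to 108, which covers counting error only. For regions from 2 to under 4 kb, with 1654 in WT and 1308 in KO, the figure was 79.1% (73.5 to 85.1). It was 75.1% (73.8 to 76.5) for regions of 500 bp, the shortest length in the lists, and 68.7% (67.1 to 70.3) over 500 and under 1000 bp. It was 71.0% from 1 to under 2 kb, 77.2% from 2 to under 3 kb, 84.3% from 3 to under 4 kb, 92.3% from 4 to under 5 kb and 100% from 5 to under 6 kb. From 6 kb on it had no steady course, at 92.4%, 78.1%, 95.5% and 160% in classes of 79 WT regions or fewer, with counting intervals that include 100%. Libraries had 17158154 tags in WT and 14789700 in KO, and the caller required 13 and 12 tags in a 500 bp peak, which scale to 15.2 and 16.2 normalised tags per kb. The stricter KO threshold goes with the lower KO number of short regions, and its part in that number was not tested.

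**Figure D1:**
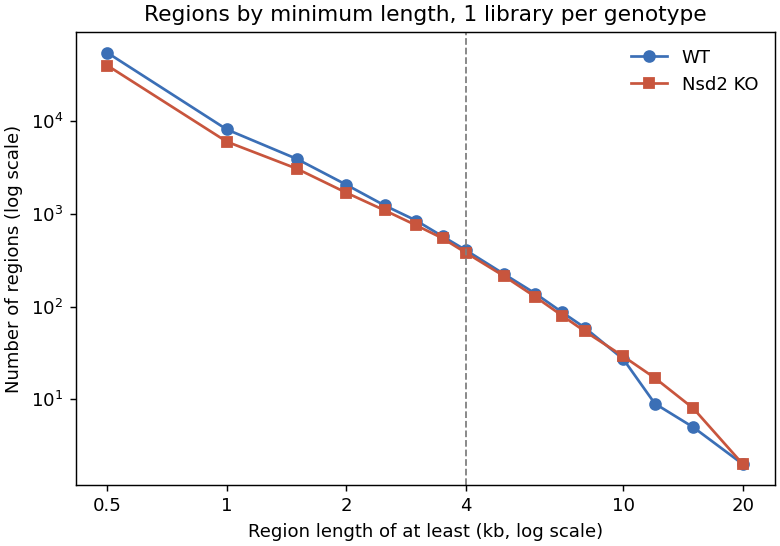
Number of called regions with at least the length on the x axis (kb, log scale) on the y axis (log scale), for the WT library (circles) and the Nsd2 KO library (squares). The dashed line marks 4 kb, where the lists hold 407 and 382 regions, while at the left end WT lies above KO.

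Within the broad class, lengths were nearly the same in both libraries. The median broad region was 5204 bp long in WT and 5247 bp in KO, and the longest was 59059 bp and 58880 bp. By length there were 183 WT and 169 KO regions from 4 to under 5 kb, 86 of each from 5 to under 6 kb, and 79 and 73 from 6 to under 8 kb. There were 32 and 25 from 8 to under 10 kb, 22 and 21 from 10 to under 15 kb, and 5 and 8 of at least 15 kb. The regions just inside the limit measured 4000, 4002 and 4005 bp in WT and 4002, 4008 and 4010 bp in KO. Those just outside measured 3995, 3980 and 3979 bp in WT and 3997, 3996 and 3996 bp in KO, with 16.5 to 18.02 normalised tags per kb, within the span of the broad class. The limit thus passes through a continuous range of lengths.

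Of the 572 domains, 198 (34.6%) were broad in both libraries, 199 in WT only and 175 in KO only. Nearly every domain was nonetheless marked in both. In domains broad in WT only, KO regions covered a median of 62.7% of the base pairs, with a longest KO region of 2404 bp at the median, and in 147 of them KO had several shorter regions. In domains broad in KO only, WT regions covered a median of 65.5%, the longest WT region had a median of 2586 bp, and WT had several regions in 137. In 63 and 60 of these domains, the longest region of the other library was from 3000 to under 4000 bp. A domain broad in 1 library was thus mostly a run of shorter regions in the other. The share broad in both went with the joined length, which partly fixes it. It was 6.10% of 246 domains from 4 to under 5 kb, 36.8% of 182 from 5 to under 7 kb, 73.0% of 89 from 7 to under 10 kb and 96.0% of 50 of at least 10 kb, the 5 others being 3 domains of very high density and 2 without a region in the other library.

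Only 2 domains (0.350%) had no called base in the other library, compared with 10.2% of 2161 joined regions from 2 to under 4 kb, a share that greater length alone lowers. A domain of 5242 bp on chromosome 15 (76508986 to 76514228) in Dgat1, which encodes an enzyme of triglyceride synthesis, was called in KO with 81.1 normalised tags and not in WT. A domain of 4139 bp on chromosome 18 (80682666 to 80686805) in Nfatc1, a transcription factor gene of calcium signalling, was called in WT with 57.1 normalised tags and not in KO. An uncalled stretch can hold tags below the threshold, so neither is a measured absence of the mark. Nfatc1 also carried a further domain of 5942 bp, broad in WT, in which KO regions covered 62.5%.

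The longest domain, of 59135 bp on chromosome 1 (88211237 to 88270372), took in the start of Ugt1a1 and the 3′ end of the Ugt1a glucuronosyltransferase genes. It also held all of Mroh2a and part of Hjurp, which encodes the centromeric histone chaperone. It was 1 unbroken region in each library, with 31.0 normalised tags per kb in WT and 33.2 in KO, and there is no control library to set these densities against. A domain of 21480 bp over Hjurp (25 in each library) and 1 of 16518 bp over Trpm8, a cold-sensing channel gene (22.5 and 23.5), followed directly. From the first to the last of these 3 domains the span was 99562 bp, covered to 93.3% in WT and 97.2% in KO. Mroh2a had 100% of its body in broad regions in both libraries. Hjurp had 88.2% in WT and 95.3% in KO.

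The other long domains with a coding gene included those of Nr4a1, Prkch and Ago2. Nr4a1, an immediate-early nuclear receptor gene induced by the T cell receptor, had a domain of 17581 bp on chromosome 15 (101255368 to 101272949). Its density was 19.3 normalised tags per covered kb in WT and 19.9 in KO, and 61.1% and 79.9% of its body lay in broad regions. Within 20 kb of Nr4a1 there was 1 broad region in WT and 4 in KO, while regions of any length covered 18080 bp and 17196 bp of the body. Broad cover at Nr4a1 was thus larger in KO while cover by regions of any length was not. Prkch, a protein kinase C gene, had a domain of 17792 bp (17.8 and 19.5), and Ago2, an effector of microRNA silencing, 1 of 21006 bp (18.7 and 21.1).

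Of the long domains, 5 without a coding gene are described by their nearest coding genes. The longest of these, of 25094 bp on chromosome 8 (126844717 to 126869811), covered the long noncoding RNA genes A630001O12Rik and Gm31718, 250731 bp from Irf2bp2 and 60852 bp from Tomm20, with 25.2 normalised tags per covered kb in WT and 26.4 in KO. A domain of 20922 bp on chromosome 17 ended 380 bp from Sik1, a salt-inducible kinase gene, with 18.7 and 18.8. Another, of 17845 bp on chromosome 2 (127312419 to 127330264), lay 5894 bp from Dusp2, a phosphatase gene that restrains MAP kinases in lymphocytes, with 21.9 and 22.3. It was 1 region in KO and 3 regions in WT, which covered 87.1%. A domain of 13340 bp lay 59852 bp from Zfp36l2, which encodes an mRNA-decay protein of lymphocyte quiescence, with 23.1 and 24.1. The fifth, of 13169 bp, covered the noncoding gene 2700054A10Rik, 162868 bp from the nearest coding gene, with 18.6 and 21.1. In all 5 the KO density was at or slightly above that of WT.

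Tag density inside broad regions lay only modestly above the calling threshold. The median broad region had 17.3 normalised tags per kb in WT (interquartile range 15.9 to 19) and 18.5 in KO (17.0 to 20.9), which is 3.46 and 3.70 times the genome mean of 5 per kb. Its unscaled tag count was about 155 in WT and 149 in KO at the median, so a single domain's density carries a wide counting interval. Longer domains were denser. The WT and KO medians were 16.6 and 17.6 per covered kb for joined lengths from 4 to under 5 kb and 18.8 and 20.6 for those of at least 10 kb.

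The KO density was slightly above the WT density in most domains. Over the 570 domains with a region in both libraries the ratio of KO to WT had a median of 1.07 (log2 ratio 0.09), an interquartile range of 0.992 to 1.14 and extremes of 0.769 and 1.59, and 413 domains were above 1. Over all 15475 joined regions with a region in both libraries, whatever their length, the median was 1.06. The ratio of the normalised calling thresholds was 1.07, so the densities and the thresholds differed by the same factor, and its part in the densities was not tested. The median was 1.07 in domains broad in both libraries, 1.11 in those broad in WT only and 1.01 in those broad in KO only, an order that the class itself helps to set. A density at least 1.5 times higher in KO was found in 2 domains and at least 1.5 times lower in 0. Among all joined regions these shares were 1.13% and 0.187%. The rule that chose the domains used the same lists, so nothing is read from these counts. Scaled instead to the tags inside called regions, the median ratio was 1.30, so whether domains were denser in KO by a little or by more depends on the scaling, and ratios are best read against that median.

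The domain with the highest ratio lay on chromosome 17 (26528967 to 26534448), 20495 bp from Dusp1, a MAP kinase phosphatase gene, with 18 normalised tags per covered kb in WT and 28.5 in KO, a ratio of 1.59 (counting interval 1.26 to 2.02). It was broad in WT only, and KO regions covered 52.4% of it. A high ratio was also found at Lck, the gene of the kinase that starts T cell receptor signalling. Its domain of 6993 bp on chromosome 4 (129569488 to 129576481) crosses the start whose upstream sequence is printed above. It was a single region in each library, covered to 97.5% in WT and 89.4% in KO, with 115.1 and 153.5 normalised tags, or 16.9 and 24.6 per covered kb, a ratio of 1.46 (1.20 to 1.77). Further high ratios were 1.43 at 151342 bp from Ets1, then over Rn18s-rs5 at 1.41, in Tmigd3 at 1.40, in Rgs10 at 1.37 and in Sik3 at 1.36. The domains near Ets1 and in Tmigd3, Rgs10 and Sik3 were broad in WT only, with KO cover of 75.8%, 51.5%, 52.8% and 57.5%. Their ratios set only the called KO stretches against the whole WT region. Normalised tags in WT and KO were 64.1 and 69.3 near Ets1, 61.8 and 44.6 in Tmigd3, 93.8 and 68.0 in Rgs10, and 85.1 and 71.3 in Sik3.

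The 8 lowest ratios ran from 0.769 to 0.840, and the counting intervals of 6 of them include 1. Csk encodes the kinase that restrains Lck, and its domain of 7744 bp, broad in both libraries, had 20.1 normalised tags per covered kb in WT and 16.1 in KO, a ratio of 0.799 (0.646 to 0.990). Ptpn1, a tyrosine phosphatase gene, had 20.9 and 16.3 (0.779, 0.614 to 0.996). The KO regions at Ptpn1 held 5543 bp, of which 2771 bp lay inside the domain of 4043 bp. Their normalised tags were 90.3, against 84.5 in WT, so the KO density there includes bases outside the domain. With gaps of at most 1000 bp merged, the ratio was 0.939 for Ptpn1 and 0.819 for Csk. Cxcr5, the receptor of follicular homing, had 22.1 and 18 in 1 of its domains (0.812, 0.624 to 1.06), and the lowest ratio of all, 0.769 (0.579 to 1.04), stood 122460 bp from Tbl1xr1, the nearer of its coding neighbours. Tex2, Capg and domains near Rbm38 and Rhoh had ratios of 0.820 to 0.840 with intervals that include 1. Scaled to the tags inside called regions, the ratio was 0.973 for Csk and above 1 for Capg and the domains near Rbm38 and Rhoh. Over all domains the interval lay above 1 in 33 and below 1 in 2, and set against the median ratio it lay above in 7 and below in 8. These intervals are not adjusted for the number of domains. No share over all joined regions is set beside them, so nothing is read from these counts.

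**Figure D2:**
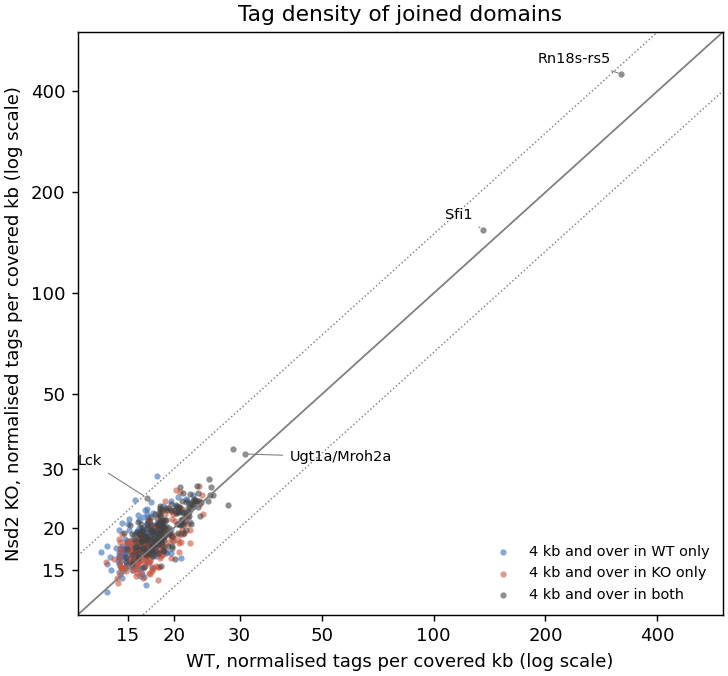
Normalised tags per covered kb of each joined domain in the WT library (x axis) and the Nsd2 KO library (y axis), both on log scales, with points coloured by the library in which the domain was at least 4 kb long. The solid line marks equality and the dotted lines a ratio of 1.5 in either direction, and all but 2 domains with regions in both libraries lie between the dotted lines.

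Density set 3 domains apart, with at least 30 normalised tags per covered kb in both libraries. The densest, of 6297 bp on chromosome 17 (39842736 to 39849033), covers the ribosomal RNA pseudogene Rn18s-rs5 and the noncoding gene AY036118, with 320 normalised tags per kb in WT and 450 in KO (ratio 1.41, 1.34 to 1.47). A domain of 16350 bp over Sfi1, a centrosome gene, had 136 and 155 (1.14, 1.09 to 1.19). The Ugt1a and Mroh2a domain was the last of them. There is no control library to set these densities against, so what share of them is the mark cannot be told and was not tested. Together they held 9.56% of the normalised tags of all domains in WT and 10.9% in KO. Without them the highest densities were 28.9 and 34.4 and the median ratio stayed at 1.07.

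The outer edges of domains broad in both libraries stood at nearly the same place in WT and KO. An edge was the outermost end of the regions overlapping the domain, and the 198 domains gave 396 edges. The median distance between the KO and WT edge was 308.5 bp, under the 500 bp length of a called peak, and 271 edges (68.4%) lay within 500 bp of each other. The KO edge lay at least 500 bp further out at 64 edges (16.2%) and at least 500 bp further in at 61 (15.4%). For 906 edges of regions from 2 to under 4 kb in both libraries these shares were 14.8% and 14.1%, so the edges of broad domains moved about as often as those of shorter regions. Net of both edges, 102 domains were wider and 96 narrower in KO, with a median of 26 bp. Gaps inside the domains took 8.79% of base pairs in WT and 9.11% in KO.

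**Figure D3:**
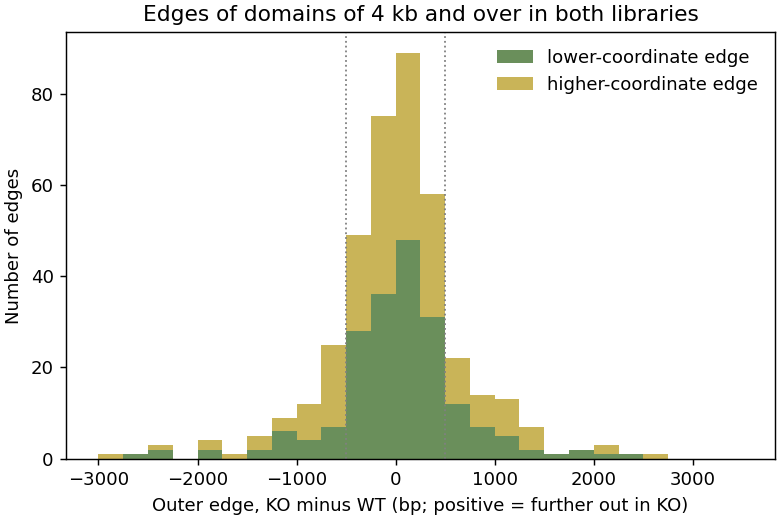
Difference in position of the outer edge, KO minus WT in bp (x axis, positive when the KO edge lies further out), for the 396 edges of the 198 domains broad in both libraries, stacked by side (y axis, number of edges per 250 bp bin). The dotted lines mark 500 bp, and 271 edges lie between them with similar numbers beyond either line.

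Where a domain held a single coding start of known strand, edges could be read against the direction of transcription. In 86 such domains a median of 2770 bp lay upstream of the start and 3554.5 bp downstream, and 49 (57.0%) had more downstream. In the 39 of these broad in both libraries, the upstream edge lay at least 500 bp further out in KO in 6 and further in in 5. The downstream edge lay further out in 1 and further in in 6. Median differences were 28 bp upstream (interquartile range -183.5 to 352) and 52 bp downstream (-351.5 to 250.5). Over all 396 edges of domains broad in both, 16.2% lay further out and 15.4% further in, and nothing is read from these small counts. Of the single genes, Mef2d, a transcription factor gene, had its downstream edge 2709 bp further out in KO, and Lck had its upstream edge at -744 bp, further in, and its downstream edge at 174 bp, further out, a net of -570 bp. Zbtb7b, which encodes the CD4 lineage factor ThPOK, had its KO edges further in on both sides, with differences of -1038 bp upstream and -1813 bp downstream.

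The largest net differences at edges came mostly from domains broad in 1 library. Net gains in KO were 3426 bp in Pecam1, an adhesion receptor gene, 3260 bp in Dock8, a guanine exchange factor gene of lymphocytes, 3229 bp in Enpp6, 3023 bp at Crybg2 and Cd52, and 3008 bp between Tm4sf20 and Agfg1. The Pecam1 domain shows how an outer edge can differ from cover, since WT had 1 region over all 9896 bp and KO 4 regions over 78.3%. The lowest net differences were -5112 bp in Hdac4, a histone deacetylase gene, -4438 bp in Hadh, -4159 bp in Rxra, a nuclear receptor gene, -4134 bp in Morn1 and -4048 bp in Mideas. In Hdac4 the WT region of 5911 bp met a KO region of 799 bp, and in Hadh and Mideas the KO region had the minimum length of 500 bp. Dock8 was the mirror case, with a WT region of 769 bp against a KO region of 4029 bp.

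Broad domains lay mostly inside coding genes, and more often than shorter regions they contained a gene's start. Coding gene bodies took up 39.4% of the chromosome spans, 58.8% of broad base pairs in WT and 55.4% in KO, and 61.3% and 61.6% of base pairs in regions of any length. A coding start was in 12.3% of broad WT regions and 18.1% of broad KO regions, in 7.01% and 9.33% of regions from 2 to under 4 kb, and in 2.89% and 3.87% of all regions, a share that length alone raises. Of the 572 domains, 366 touched 1 coding gene, 24 touched 2, 2 touched 3 or more and 180 (31.5%) touched none. Among the 180, 72 held only noncoding genes and 108 no annotated gene. A coding gene lay within 20 kb of 91 of them, and 29 were over 100 kb from any.

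Broad regions reached the bodies of 242 coding genes in WT and 225 in KO out of 21627, which is 1.12% and 1.04%. Of 331 genes (1.53%) reached in either library, 136 were reached in both, 106 in WT only and 89 in KO only. Genes reached were long, with a median of 36857 bp against 17330 bp for all coding genes. Among genes of at least 10 kb, the bodies with the largest share in broad regions were Mroh2a, Hjurp, Cd2 and Nr4a1. Cd2, a T cell adhesion receptor gene, had 85.0% of its body in broad regions in WT and 49.9% in KO, while regions of any length covered 10229 bp and 10266 bp of it. In the domain nearer its lower-coordinate end the longest KO region measured 3768 bp, just under the limit.

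Genes of T cell identity were the list with the most members in broad regions. Of 24 listed genes, 8 were reached in WT and 10 in KO, against the 1.12% and 1.04% of all coding genes, and 8 in both. This list was assembled with earlier results of these data known. Bcl11b, a factor of T cell commitment, had 5 domains in its body, all broad in both libraries, with 36.2% of the body in broad regions in WT and 30.6% in KO. Their densities ran from 15.5 to 16.9 normalised tags per covered kb in WT and from 15.9 to 20.4 in KO. Tcf7, which encodes the factor TCF1, had 40.4% and 28.3% of its body in broad regions, with a domain of 10985 bp that ends in the promoter window shown above (20.6 in each library), and regions of any length covered 18107 bp in WT and 18457 bp in KO. Cd5, an inhibitory receptor gene, had a domain of 12318 bp over its start with 24.8 and 28.0, and broad regions took 21.4% of its body in WT and 33.9% in KO. Cd6, its paralogue, had 20.1% and 6.54%, while regions of any length covered 10733 bp of it in WT and 14992 bp in KO. Lck had 15.7% and 16.4%, and Ets1 4.30% and 4.84%. Cd27, a costimulatory receptor gene, and Lef1, a partner of TCF1, were reached in KO only, with 62.8% and 3.96%, and in both genes the WT regions were shorter than 4 kb. Regions of any length covered 17186 bp of Lef1 in WT and 15924 bp in KO. Cd3e, Cd3d, Cd3g, Cd247, Cd4, Cd28, Zap70, Lat, Gata3, Runx1, Runx3, Satb1, Themis and Cd69 carried none in their bodies in either library.

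Among 24 Treg signature genes, 4 were reached in WT and 3 in KO, against 1.12% and 1.04% of all coding genes. Foxp3, Ctla4, Il2ra and Ikzf2 carried no broad region in their bodies in either library. A domain of 5463 bp, broad in KO, lay 2367 bp from Il2ra, with 19.8 normalised tags per covered kb in WT and 18.7 in KO. Izumo1r, which encodes folate receptor 4 of Treg cells, had a domain of 8970 bp over the start shown above, with 129.4 and 167 normalised tags and a ratio per covered kb of 1.18 (0.984 to 1.43), and 32.2% and 22.5% of its body in broad regions. Cover of Izumo1r by regions of any length was 8324 bp in WT and 8680 bp in KO. Tnfrsf4 and Tnfrsf18, which encode the costimulatory receptors OX40 and GITR, are neighbours. Tnfrsf4 lay wholly in broad regions in both libraries (18.5 and 20.8), and Tnfrsf18 lay in a domain of 8339 bp that was 1 region in WT and 2 regions in KO, the longest of 3940 bp (22.5 and 25.1). Lrrc32, the gene of the latent TGF-beta carrier GARP, was reached in WT only, with 33.4% of its body, yet regions of any length covered 5164 bp in WT and 6183 bp in KO. Capg was reached in KO only, by a region of 4002 bp, and regions of any length covered 6304 bp in WT and 5685 bp in KO.

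IL-2 and STAT5 genes were reached in KO only, in 3 of 14, against 1.12% of all coding genes in WT and 1.04% in KO. Of the 3, Stat5a and Stat5b were reached by the same KO region. Within 20 kb, 4 of the 14 genes had a broad region in WT and 6 in KO. Il2rb, the IL-2 receptor beta chain, had 26.7% of its body in broad KO regions and none in broad WT regions, while regions of any length covered 13844 bp in WT and 16077 bp in KO. Its named domain of 6131 bp had 20.1 and 20.9 normalised tags per covered kb. A domain of 8572 bp joined the neighbours Stat5b and Stat5a, broad in KO as 1 region, while WT had 3 regions covering 57.8% with a longest of 2216 bp (17.0 and 15.7). Cish and Socs1, inhibitors of this pathway, each had a domain broad in both libraries within 20 kb. That of Cish began 164 bp from the gene and had 20.7 and 22.8, and that of Socs1 lay 4861 bp away with 18 and 21.3. All 3 genes reached in KO only were thus also marked in WT, by regions under 4 kb.

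Of 20 genes of T cell receptor, NF-kB and NFAT signalling, 3 were reached in each library, namely Nr4a1, Nfatc1 and Prkcq. Over all coding genes the shares were 1.12% in WT and 1.04% in KO. Prkcq, the protein kinase C of the T cell synapse, had 3.26% of its body in broad regions in WT and 7.87% in KO. In Nfatc1 the shares were 9.43% and 4.39%. Regions of any length covered 20717 bp of Prkcq in WT and 24605 bp in KO, and 26114 bp and 18210 bp of Nfatc1. Egr1, an immediate-early factor gene, had a domain of 4414 bp at 3964 bp, broad in KO only, with 17.7 and 17.9 normalised tags per covered kb.

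Of 17 chemokine receptor and homing genes, 4 were reached in WT and 3 in KO, against 1.12% and 1.04% of all coding genes. Ccr8, a receptor of activated Treg cells, had 76.7% of its body in broad regions in WT and 87.6% in KO, with 19 and 22.9 normalised tags per covered kb. Selplg, the selectin ligand PSGL-1, had 51.4% and 50.2%, and Cxcr5 17.3% and 44.4%. Regions of any length covered 7644 bp of Cxcr5 in WT and 8659 bp in KO. Ccr7, the receptor of lymph node homing, was reached in WT only, with 37.0%, while regions of any length covered 7390 bp in WT and 8357 bp in KO. A domain of 4187 bp, broad in WT, lay 20488 bp from Cxcr4, with 21.6 and 24.4.

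Among 20 genes of lymphocyte quiescence, 2 were reached in WT and 3 in KO, against 1.12% and 1.04% of all coding genes. Foxp1, a factor that keeps T cells quiescent, had 3 domains that were broad in WT only, of 7498, 5660 and 4762 bp, in which KO regions covered 52.1%, 66.3% and 81.6%. Their densities were 17.6, 16.7 and 16.9 normalised tags per covered kb in WT and 20.1, 18.9 and 22.0 in KO. Bach2, a repressor of effector differentiation, had 2.51% of its body in broad regions in WT and 4.30% in KO, while regions of any length covered 75905 bp and 63227 bp. Btg1, an anti-proliferative gene, and Zfp36, an mRNA-decay gene, were reached in KO only, with 44.8% and 16.1%. The Btg1 domain of 10936 bp was 1 region in KO and 4 in WT, the longest of 4106 bp, with 17.4 and 19.5.

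The other lists had few or no members in broad regions. Of 14 AP-1, BATF and IRF genes only Junb was reached, in WT, at the end of a domain of 12692 bp with 20.4 and 23.1 normalised tags per covered kb. Of 19 H3K36 writers, erasers and readers found in the annotation, Kdm2b was reached in both libraries and Dnmt3a in WT only, and none of the writers. Of 15 housekeeping genes, Actb was reached, in WT. No member was reached, in its body or within 20 kb, among 14 B cell genes, 18 myeloid and dendritic cell genes, 10 NK and CD8 T cell genes, 10 erythroid genes and 20 developmental and neuronal genes. Over all coding genes the shares were 1.53% in the body and 2.86% within 20 kb, so lists this short can lack members by size alone. Their genes were also shorter, with list medians of 7223.5 to 20490.5 bp against 28924 bp for T cell identity, and nothing is read from their zeros. In either library, broad regions reached 10 of 24 T cell identity genes and 5 of 24 Treg genes, and not Foxp3, Cd3e or Cd4. These lists were chosen with earlier results of these data known, so the counts are no check on the cell label. Broad regions are no measure of expression, and the purity of the cells was not tested.

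**Figure D4:**
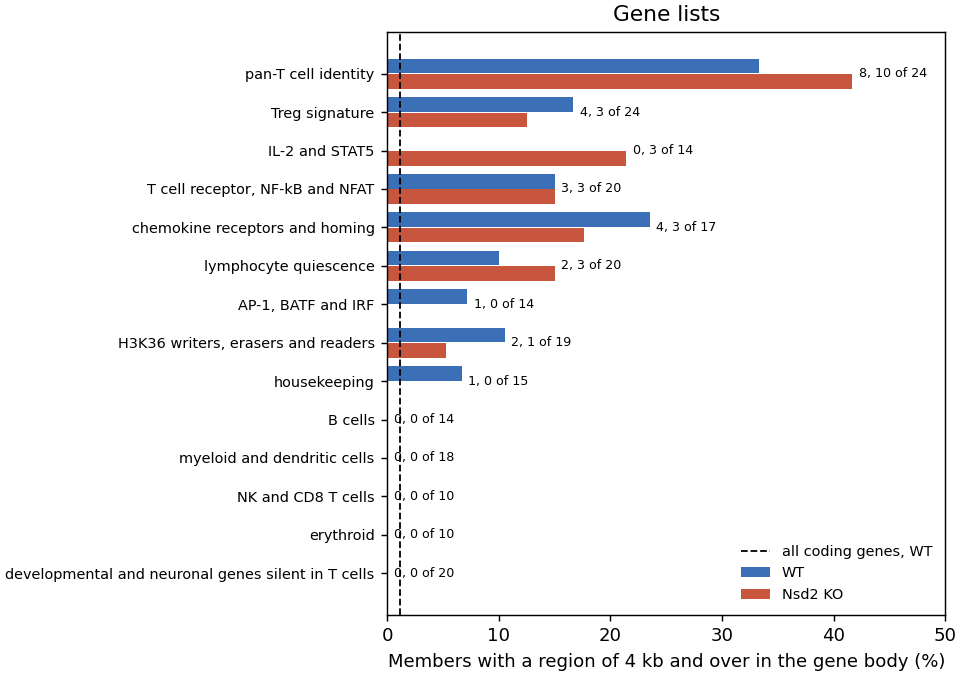
Percentage of the members of each gene list with a region of 4 kb and over in the gene body (x axis) in the WT and Nsd2 KO libraries, with the counts beside the bars and the lists on the y axis. The dashed line marks the 1.12% of all coding genes in WT, and the pan-T cell list has the longest bars, with 8 and 10 of 24 members.

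Widening the view to 20 kb around genes, 619 coding genes (2.86%) had a broad region in or near them in either library. The counts were 11 of 24 for T cell identity, 7 of 24 for the Treg signature, 6 of 14 for IL-2 and STAT5, 6 of 20 for T cell receptor signalling, 4 of 17 for chemokine receptors and 7 of 20 for quiescence. They were 3 of 19 for H3K36 writers, erasers and readers, 2 of 15 for housekeeping genes and 1 of 14 for AP-1, BATF and IRF, shares that also lie above that of all coding genes. Cd83, an activation marker gene, had a domain broad in both libraries at 15237 bp (18.5 and 20.2 normalised tags per covered kb). Zfp36l2 had 4 domains on its left within 59852 bp, the nearest at 657 bp (18.6 and 18.4). Lrrc32 had 4 others within 68636 bp, of which the longest, of 12551 bp, was broad in both libraries (22.8 and 24.0).

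Domains occurred in groups. With gaps of at most 10 kb, 83 groups held 193 of the 572 domains (33.7%), and 20 groups had 3 or more. The largest group, of 5 domains over 46600 bp on chromosome 6, spanned Gimap6, Gimap7 and Gimap1, GTPase genes of lymphocyte survival, with 70.3% of the span in regions in WT and 73.6% in KO. Its domain between Gimap7 and Gimap1 had 20.7 normalised tags per covered kb in WT and 26.4 in KO (ratio 1.28), whereas the Gimap1 domain of 11999 bp was 1 region in WT and had a longest region of 3927 bp in KO. Groups of 4 lay at Prkch, at Cd5, downstream of Ets1, at Il2rb, and at Lfng and Ttyh3. The Cd5 group spanned 37463 bp towards Cd6, with 71.7% in regions in WT and 86.2% in KO. At Il2rb the shares were 60.9% and 77.1%, and at Tnfrsf4 and Tnfrsf18, a group of 3, they were 82.3% and 78.8%. Which library covered more therefore varied from group to group.

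**Figure D5:**
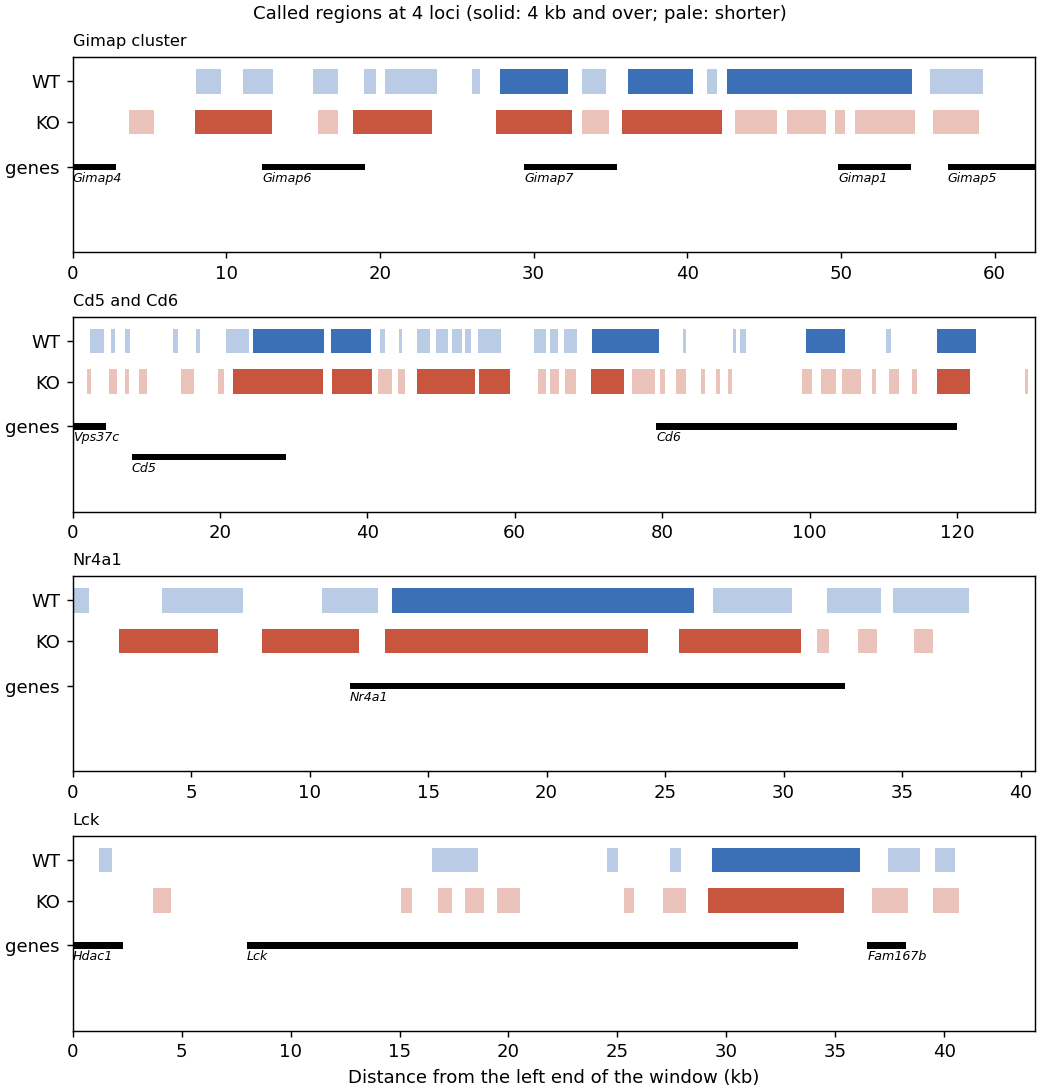
Called regions of the WT and Nsd2 KO libraries and coding genes (black bars) at the Gimap genes, Cd5 and Cd6, Nr4a1 and Lck, against distance from the left end of each window in kb. Solid bars are regions of at least 4 kb and pale bars are shorter, and stretches that form 1 solid bar in a library often appear as several pale bars in the other.

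Domains were spread over all 20 chromosomes examined. Per 100 coding genes there were 6.92 domains on chromosome 12 and 4.77 on chromosome 15, and the lowest value was 0.414 on X, with 4 broad WT regions and 1 KO region. The counts per chromosome are small, and every counting interval of the KO percentage of WT broad regions included 100, among them those of chromosome 13, at 57.1% (20.8 to 146), and chromosome 19, at 136% (58.5 to 328).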

How the data were processed

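H3K36me2 was profiled in splenic Treg cells with 1 WT and 1 KO library. Per the labels' protocols, an in situ ChIP library kit and a transposase index kit were used. No antibody, input control or tool version is named in the sources used here. The build mm10 and the tools HOMER, Bowtie2, Trim Galore, deepTools and Picard are listed in the submitters' processing notes.

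Per the file headers, the authors called regions in each library with HOMER findPeaks in histone style, stitching 500 bp peaks, with a fragment length of 180 bp and no control library in the command. The deposited signal is a tag count that the authors scaled to 10000000 tags per library, so a change of the mark over the whole genome cannot show. The deposited score is, from its values, the tag count of a 500 bp peak, and served as an alternative filter. The deposited region length is another such value, and the clonal fold change, a ratio the authors deposited, was not used.

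Tags per covered kb are the normalised tags of all regions overlapping a domain, divided by their length. Ratios have exact conditional binomial 95% intervals from unscaled tags. Tags are PCR reads without molecular identifiers, so intervals cover counting error only. Coordinates are as deposited. Gene positions, strands and sequences came from RefSeq GRCm38.p6, with strand for 17273 of 21627 coding genes and 239 of 240 list entries found. Python 3.11.15 with numpy 2.4.6, pandas 2.3.3, scipy 1.17.1 and matplotlib 3.10.9 was used, and the joining, ratio and edge code was tested on simulated data.

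The domains and the 14 gene lists were chosen with earlier results of these data known. Domains named in the text were the 10 longest, the 10 with most tags, the 8 highest and 8 lowest ratios among 480 covered to at least 50% in both libraries, the 5 largest edge gains and losses, up to 4 members of each list, the 5 longest without a coding gene, the 2 without a region in the other library, and the 4 genes of at least 10000 bp with the largest broad share. Other genes and domains were named after their values were seen. A few genes and domains that these rules name are not reported here. Results were recomputed under each of 10 other settings that bore on them, and without the 3 densest domains, a setting chosen after seeing the data.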

Additional observations from a re-analysis of the deposited data

Results flagged for a closer look

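Regions of at least 4 kb also occurred outside chromosomes 1 to 19 and X, and none of the comparisons above uses them. On the mitochondrial sequence, which carries no histones, there were 2 such regions in WT with 29592 normalised tags and 2 in KO with 34481. On unplaced or unlocalised scaffolds there were 9 in WT with 7281 normalised tags and 9 in KO with 7847. There is no control library to set these values against, and they were not tested.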

How the results depend on the processing

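With 1 library per genotype, no replicate could be left out. No paired analysis was possible because each genotype has a single library and no test was made. Of 89 values recomputed under alternatives, 52 stayed within the counting or rank interval of the main value, or within 1.5 times a main count, and 37 moved. Of 81 ratios of named domains, 79 stayed within their counting interval and 2 moved. Counts of regions and domains move with how many the length limit, merging, score and fold admit, and the cause of the other shifts was not tested.

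A limit of 3000 bp gave 847 WT and 753 KO regions with medians of 3941 and 4018 bp, 1152 domains, 8 with a density at least 1.5 times higher in KO, a median KO cover of 87.8% and 609 coding genes. A limit of 5000 bp gave 224 and 213 regions with medians of 6404.5 and 6401 bp, 318 domains and 198 coding genes. Merging gaps of at most 1000 bp gave 950 and 801 regions with medians of 5412 and 5584 bp, 1242 domains, 5 higher and 1 lower, a median edge difference of -24.5 bp, a median KO cover of 85.1% and 733 coding genes. The higher-scoring 50% of regions gave 222 and 201 regions, 351 domains, 19.1% broad in both, 4 higher, median covers of 98.6% in WT and 88.0% in KO and 213 coding genes. Scaling to tags inside regions gave a median ratio of 1.30 with 43 domains higher. Requiring 80% cover in both left 0 higher, and a lower fold limit gave 33 higher and 3 lower. The median edge difference was 18 bp and changed sign with the length limit (-6 bp at 5000 bp). A median of 155 and 149 unscaled tags per broad region limits what a single ratio can show.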
